A study of Mus musculus with 8 samples.

Results

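The expression of 50 DNA repair genes was followed by pathway in RNA sequencing of whole TH-MYCN mouse neuroblastomas. They were chosen by name, as textbook members of recombination (16 genes), the Fanconi anaemia pathway (8), end joining (7), mismatch repair (3), base excision (6) and nucleotide excision (6) and the damage kinases (4), and all 50 were found among the 17488 genes listed. The choice was made with earlier results of these data known. The tumours came from 4 mice given panobinostat, 2 doses of 5 mg/kg set 24 h apart, and 4 mice given vehicle on the same schedule. All 8 mice were homozygous for TH-MYCN, a transgene in which the tyrosine hydroxylase promoter drives MYCN, so that tumours form in the sympathetic nervous system. Treatment began at about 6 weeks of age with tumours of 200 to 300 mm3, and intra-abdominal tumours were taken 4 h after the second dose. Panobinostat inhibits the zinc-dependent histone deacetylases. Each library held tumour cells and stroma of 1 animal, and in such bulk RNA fewer cells of a type and less RNA per cell cannot be told apart.

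A broken DNA duplex can be mended by homologous recombination, which copies the sister chromatid and so works in S and G2 phase, or by end joining, which ligates the ends at any time of the cycle. The Fanconi pathway unhooks crosslinks between the strands and hands them to recombination, while mismatch, base excision and nucleotide excision repair remove replication errors, small base lesions and bulky lesions. The kinases ATM and ATR sense damage and, through CHK2 and CHK1, halt the cycle, and many genes of recombination and of the ATR branch are transcribed under E2F control as cells enter S phase.

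Repair genes were mostly lower or without a call after panobinostat, and few were higher. Of the 50 members 25 fell, 2 rose and 23 made no call (limma, Benjamini-Hochberg adjusted p under 0.05 over 16157 genes). Among all genes tested 63.7% were called, 32.4% lower and 31.2% higher, so the share of lower calls was larger among the members than among all genes and that of higher calls smaller (4.00%). These shares were not compared by a test, and the members were not chosen blind to the data. Decreases of at least 2-fold were called in 13 of 50 members and in 13.5% of all genes. Against a 1.5-fold change 16 members were lower and 2 higher, where 13.5% of all genes tested were lower and 30.9% were called in either direction. The median log2 change of the members was -0.35, against -0.02 over all genes tested. The pathways differed in their counts: 16 of 24 recombination and Fanconi genes and 4 of 6 base excision genes fell, whereas none of 6 nucleotide excision genes fell and 1 of 4 damage kinase genes did. This contrast was not tested, and it was not seen among the further genes of these pathways described at the end. Of those, 10 of 17 in nucleotide excision and 12 of 14 in the damage kinase branch fell. Not all of these calls held without panobinostat libraries 3 and 4. Ercc6, Gtf2h5, Xab2 and Cul4a of nucleotide excision and Atrip and Wee1 of the damage kinase branch lost theirs. So did further genes of the other pathways, among them Rad51b, Polq, Swi5, Fan1, Smug1 and Aptx. The 2 genes that rose were Lig4 of end joining and Ddb2 of nucleotide excision. All 50 passed the filter on low values (CPM, the read count scaled to library size, of at least 1 in at least 4 libraries), and the fewest reads in any library were 99 with panobinostat and 30 with vehicle.

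**Figure D1:**
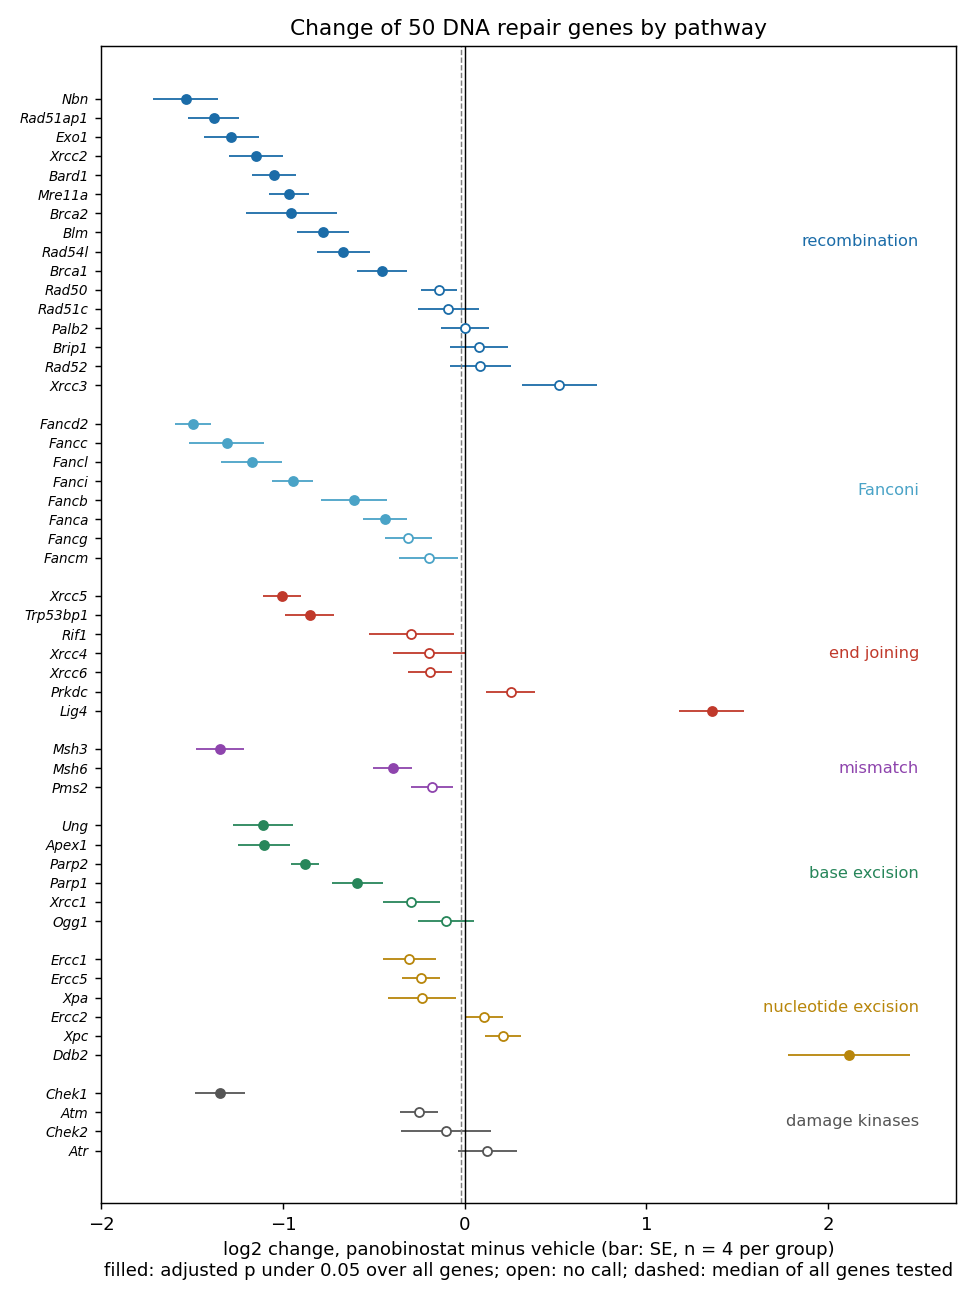
Log2 change of each of the 50 repair genes on the horizontal axis (panobinostat minus vehicle, bars are the SE, n = 4 per group), grouped by pathway from top to bottom. Filled points passed the test over all genes. Most filled points lie left of 0 in recombination, Fanconi and base excision, and only Lig4 (1.36) and Ddb2 (2.11) are filled on the right.

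The groups differed in much besides repair. Summed over 15 genes of S phase and mitosis, which all fell, the level was 1892 to 2297 CPM with panobinostat, against 5162 to 5937 CPM with vehicle. Sympathetic tumour markers were present in every library, with 5 of 8 lower and a sum of 891 to 1028 CPM with panobinostat, against 1671 to 2527 CPM with vehicle. Macrophage markers were higher in 9 of 10 cases (3104 to 5539 CPM against 648 to 1254 CPM with vehicle), fibroblast and mural markers in 10 of 10 (8988 to 16047 CPM against 1510 to 4949 CPM) and adipocyte markers in all 6 (1677 to 2535 CPM against 29.1 to 669 CPM). Schwann cell markers were higher in 5 of 6 cases (106 to 360 CPM against 93.6 to 145 CPM), endothelial markers in 2 of 8 (345 to 538 CPM against 104 to 528 CPM) and lymphocyte markers in 1 of 2 tested (29.3 to 52.2 CPM against 6.71 to 42.9 CPM). Genes of neighbouring organs were summed at 39.4 to 2756 CPM against 9.02 to 11.2 CPM for adrenal cortex and 149 to 8950 CPM against 7.32 to 62.0 CPM for liver. The sums were 15.2 to 4216 CPM against 7.40 to 14.4 CPM for pancreas and 3.72 to 769 CPM against 0.530 to 2.84 CPM for kidney. Few genes of these lists passed the filter and were tested. Those higher were 5 of 5 tested for adrenal cortex, 2 of 2 for liver, 1 of 1 for pancreas and 1 of 2 for kidney. The adrenal genes Cyp11b2, Mc2r and Nr5a1, the kidney genes Slc34a1 and Kap and the adipocyte gene Lep were at 0 reads in at least 1 library. The part of these cells in the changes of the repair genes was not tested. Panobinostat libraries 3 and 4 held most of the adrenal, liver, pancreas and kidney reads of the treated tumours. Without them all 27 members called were called again in the same direction. How many of all called genes were called again was not computed. In that fit 25 of the 50 members fell and 2 rose, where 25.0% of all genes fell and 23.4% rose. That fit did not remove other tissue. Panobinostat library 1 still held 722 CPM of adrenal cortex genes and library 2 held 680 CPM of pancreas genes. These 2 libraries also had the highest fibroblast and mural sums (16047 and 15168 CPM).

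E2F motifs stood in many promoters of the members, of genes that fell and of genes without a call. E2F factors switch on S phase genes, and the core of their site was searched as TTCCCGC or TTGGCGC on either strand, in windows from 250 bases before to 50 bases after the RefSeq start of 41 members with a sequence (GRCm38.p6, first listed start of each gene). It was found in 20 of 41 member promoters (48.8%), against 11.6% of 12374 promoters of listed genes. Among members that fell 10 of 21 held it (47.6%), and among members with no call 10 of 19 (52.6%). No sequence was used here for Nbn, Exo1, Xrcc2 and Fancd2, which fell, for Ddb2, which rose, or for Rad50, Prkdc, Rif1 and Xpc. The CCAAT box (CCAAT) stood in 58.5% of member promoters against 38.4% of all, and the MYC-type E-box (CACGTG) in 9.76% against 9.69%. The 4 members with an E-box, Xrcc5, Apex1, Parp1 and Parp2, were among the 21 that fell (19.0%), and none was among the 19 without a call. The CHR element of late cell cycle genes (TTTGAA) stood in 4.88% against 12.1%. A match describes the letters and shows no binding. The promoters of 4 members illustrate this, with E2F matches in capitals: Rad51ap1 and Chek1 fell and have a match, Atm has the same GCGGGAA match and made no call, and Lig4 rose and has none. The windows are chr6:126939538-126939837, chr9:36726609-36726908, chr9:53536622-53536921 and chr8:9977631-9977930, all on the minus strand.
Rad51ap1: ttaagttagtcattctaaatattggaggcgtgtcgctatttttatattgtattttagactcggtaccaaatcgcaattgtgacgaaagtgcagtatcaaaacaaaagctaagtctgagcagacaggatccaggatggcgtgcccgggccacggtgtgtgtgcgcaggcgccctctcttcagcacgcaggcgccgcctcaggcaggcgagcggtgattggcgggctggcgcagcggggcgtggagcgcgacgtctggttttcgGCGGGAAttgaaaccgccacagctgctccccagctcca
Chek1: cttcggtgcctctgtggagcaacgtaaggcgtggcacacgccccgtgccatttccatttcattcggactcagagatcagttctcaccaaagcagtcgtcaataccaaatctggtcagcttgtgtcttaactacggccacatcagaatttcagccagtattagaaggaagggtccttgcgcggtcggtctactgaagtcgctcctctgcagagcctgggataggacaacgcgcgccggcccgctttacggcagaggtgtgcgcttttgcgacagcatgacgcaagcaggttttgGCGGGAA
Atm: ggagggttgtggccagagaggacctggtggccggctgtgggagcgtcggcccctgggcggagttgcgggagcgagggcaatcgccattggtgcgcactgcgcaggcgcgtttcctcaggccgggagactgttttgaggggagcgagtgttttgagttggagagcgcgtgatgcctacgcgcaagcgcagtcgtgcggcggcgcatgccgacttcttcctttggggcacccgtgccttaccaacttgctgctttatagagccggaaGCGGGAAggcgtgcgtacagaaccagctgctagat
Lig4: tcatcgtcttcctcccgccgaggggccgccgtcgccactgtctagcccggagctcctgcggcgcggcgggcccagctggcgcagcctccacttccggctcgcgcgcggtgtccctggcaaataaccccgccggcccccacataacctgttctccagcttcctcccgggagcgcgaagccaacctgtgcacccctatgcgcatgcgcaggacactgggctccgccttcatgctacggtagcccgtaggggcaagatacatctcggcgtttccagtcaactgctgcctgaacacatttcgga

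Recombination begins when broken ends are sensed and cut back, and of these 5 genes 4 fell. Mre11a (chromosome 9, 14784654 to 14837123, mm10 as are all spans here) encodes the nuclease of the MRN complex. It stood at 4.69, 4.36, 4.64 and 4.70 log2 CPM in panobinostat libraries 1 to 4, against 5.58, 5.56, 5.48 and 5.62 in vehicle libraries 1 to 4. The 2 groups did not overlap, and the change was -0.97 on the log2 scale (SE 0.11, adjusted p = 7.04e-05, limma). Nbn, the subunit that brings ATM to the break, changed by -1.54 (SE 0.18), the largest decrease among the 50. Rad50, the ATPase that joins both, made no call (-0.14, SE 0.10), with 4.88 to 5.00 log2 CPM in panobinostat libraries and an overlapping 4.96 to 5.19 in vehicle libraries. In these libraries the MRN subunits changed unequally. Within a library, Nbn minus Rad50 averaged -2.34 log2 with panobinostat and -0.95 with vehicle, and Mre11a minus Rad50 averaged -0.36 and 0.46. An exact permutation test over 70 assignments gave p = 0.0286 for both, the smallest it allows, and 0.0367 adjusted over 18 pairs. These pairs and those below were chosen with earlier results of these data known. Their p-values are therefore no independent support. The long-range resection nuclease gene Exo1 fell by 1.28 (SE 0.15) and Blm, a helicase of resection and of joint dissolution, by 0.78 (SE 0.14).

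Of the BRCA group, which carries the recombinase to resected ends, 3 of 5 genes fell. Brca1 (chromosome 11, 101488764 to 101551955) read 5.91, 6.10, 6.26 and 6.49 log2 CPM with panobinostat, against 6.73, 6.82, 6.53 and 6.51 with vehicle. The groups just missed each other, with panobinostat library 4 next to vehicle library 4, and the change was -0.46 (SE 0.14, adjusted p = 0.0158, limma). This call was lost with quantile normalization (-0.29, adjusted p = 0.0996, limma) and with scaling to read totals (-0.34, adjusted p = 0.0629, limma). Bard1, whose product forms the BRCA1 heterodimer, fell by 1.05 (SE 0.12). The balance of these partners differed between groups, with Brca1 minus Bard1 at 2.12 to 2.39 log2 in panobinostat libraries and 1.57 to 1.77 in vehicle libraries (adjusted p = 0.0367, exact permutation test). Brca2 (chromosome 5, 150522630 to 150570329), the recombinase loader, had 4.85, 5.06, 5.10 and 5.33 log2 CPM with panobinostat, against 6.41, 6.53, 5.91 and 5.31 with vehicle. Its groups overlapped through vehicle library 4 alone, and the change was -0.95 (SE 0.25, adjusted p = 0.00833, limma). Palb2, which bridges BRCA1 and BRCA2, made no call (0.00, SE 0.13), nor did the helicase gene Brip1 (0.08, SE 0.16), and both signs turned with quantile normalization (-0.24 and -0.074) and with centring on medians (-0.12 and -0.038).

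Strand exchange was split, with 3 of 6 genes lower. Rad51ap1 (chromosome 6, 126923050 to 126939587), which stimulates strand invasion and whose promoter is printed above, had 4.49, 4.51, 4.54 and 4.79 log2 CPM with panobinostat, against 6.08, 6.18, 5.96 and 5.63 with vehicle. Every panobinostat library lay below every vehicle library, by 2.61-fold on average (log2 change -1.38, SE 0.14, adjusted p = 3.55e-05, limma). Rad54l, a motor protein on joined strands, fell by 0.67 (SE 0.15), though 15.4% of its exon length is shared with Lrrc41 on the other strand, which changed by -0.79 (SE 0.20). The recombinase paralog gene Xrcc2 fell by 1.15 (SE 0.15). Its relative Xrcc3 had 5.06 to 5.28 log2 CPM with panobinostat, against 4.23 to 5.07 with vehicle, and missed the threshold narrowly (0.52, SE 0.21, adjusted p = 0.0503, limma), passing it under 6 alternatives. The difference between the 2 paralogs was large, at -2.20 to -1.91 log2 (Xrcc2 minus Xrcc3) with panobinostat and -0.81 to 0.28 with vehicle (adjusted p = 0.0367, exact permutation test). Rad51c (-0.09, SE 0.17) and Rad52 (0.09, SE 0.17) made no call.

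In the Fanconi pathway 6 of 8 genes fell, led by the clamp that is ubiquitinated at crosslinks. Fancd2 (chromosome 6, 113531682 to 113597017) had 4.72, 4.85, 4.75 and 5.01 log2 CPM with panobinostat, against 6.33, 6.40, 6.39 and 6.19 with vehicle. The distance between groups was far wider than the spread within either, a 2.82-fold lower level (log2 change -1.495, SE 0.10, adjusted p = 6.76e-06, limma), and this was the smallest adjusted p of the 50. Its partner Fanci (chromosome 7, 79391929 to 79450264) had 4.06, 4.31, 4.20 and 4.33 log2 CPM with panobinostat, against 5.11, 5.06, 5.31 and 5.20 with vehicle. It fell too, by 0.95 (SE 0.11, adjusted p = 9.36e-05, limma), and 15.95% of its exon length is shared with Polg on the other strand, which made no call (-0.19, SE 0.10). Fancd2 fell further than Fanci, since Fancd2 minus Fanci was 0.55 to 0.68 log2 with panobinostat and 0.99 to 1.34 with vehicle (adjusted p = 0.0367, exact permutation test).

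Of the core complex, which ubiquitinates that clamp, 4 of 6 genes fell. The ligase gene Fancl fell by 1.17 (SE 0.17) and the subunit gene Fancc fell by 1.31 (SE 0.21), and the subunit genes Fancb (-0.61, SE 0.18) and Fanca (-0.44, SE 0.12) fell too. Reads on shared exons could bear on several of these, but this was not tested and the strand setting is not known. On the other strand, 13.7% of Fancl overlaps Vrk2, which rose by 1.52 (SE 0.33). Likewise 10.5% of Fanca overlaps Zfp276, which rose by 0.83 (SE 0.12). For Fancc the share is 18.6%, with 2010111I01Rik (-0.02, SE 0.15) and Gm16133 together. Fancb lost its call when libraries were scaled to read totals (adjusted p = 0.0507, limma). Fancg (-0.31, SE 0.13, adjusted p = 0.0599, limma) and the DNA translocase gene Fancm (-0.20, SE 0.16) made no call.

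**Figure D2:**
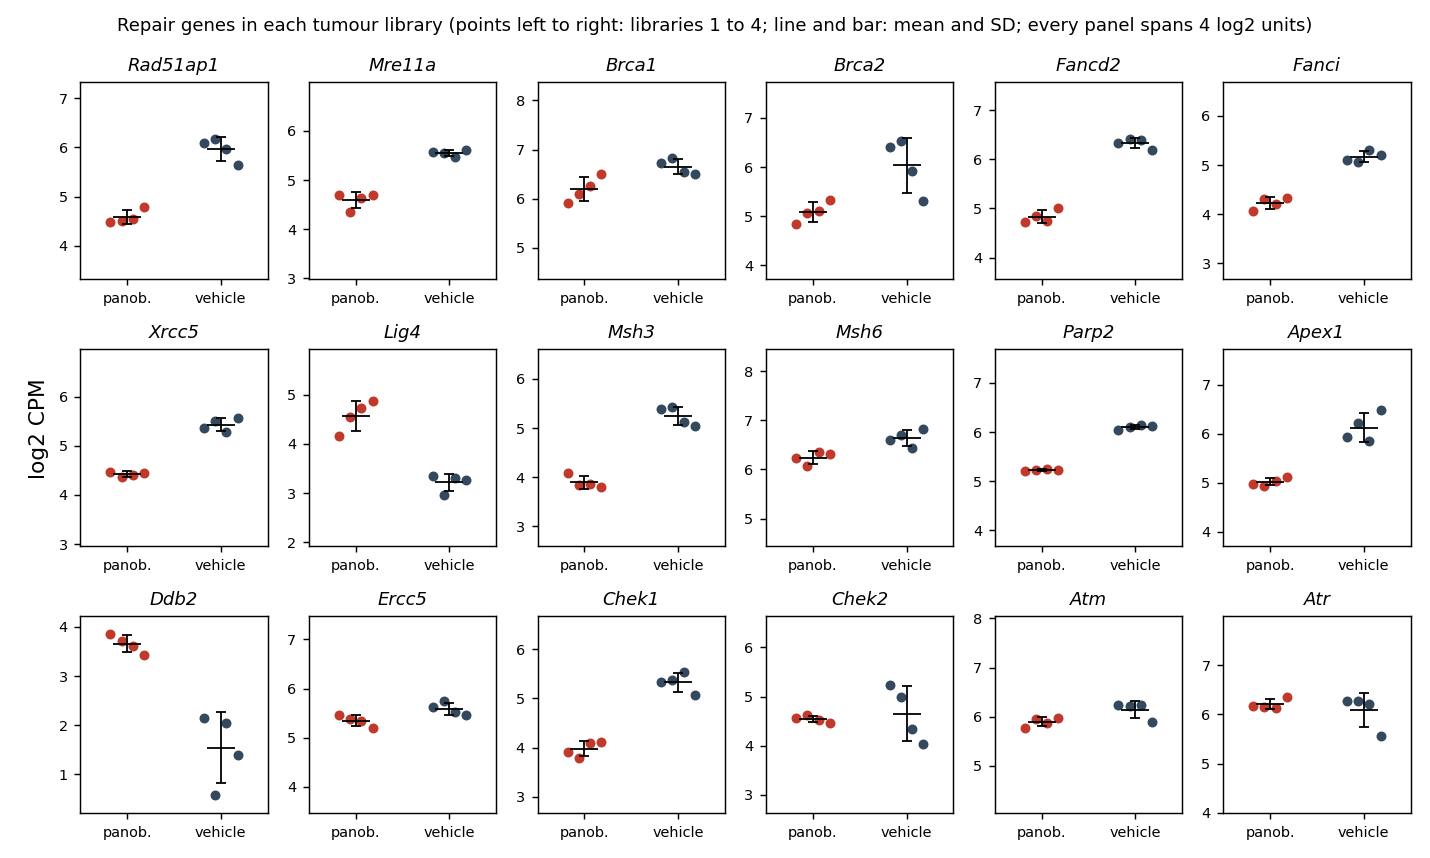
Log2 CPM of 18 repair genes in each library, panobinostat at left and vehicle at right of each panel, with the mean and SD (n = 4), all panels spanning the same range of log2 units. The groups are wide apart for Fancd2, Chek1 and Parp2, vehicle library 4 lies low for Brca2 and Atr, and Lig4 and Ddb2 are the panels of the 2 genes called higher with panobinostat.

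End joining genes moved both ways. Xrcc5 (chromosome 1, 72307421 to 72394952), which encodes KU80 of the ring that caps broken ends, had 4.48, 4.36, 4.41 and 4.46 log2 CPM with panobinostat, against 5.37, 5.50, 5.27 and 5.57 with vehicle. Both groups were tight and apart, and the gene fell by 1.00 (SE 0.10, adjusted p = 4.47e-05, limma). Xrcc6, encoding KU70, its partner in the ring, made no call (-0.19, SE 0.12). Accordingly Xrcc5 minus Xrcc6 was -1.80 to -1.62 log2 with panobinostat and -0.97 to -0.75 with vehicle (adjusted p = 0.0367, exact permutation test). Lig4 (chromosome 8, 9969049 to 9977686), the ligase of this pathway, had 4.16, 4.54, 4.73 and 4.87 log2 CPM with panobinostat, against 3.34, 2.97, 3.30 and 3.26 with vehicle. It rose 2.56-fold (log2 change 1.36, SE 0.18, adjusted p = 1.72e-04, limma), with the lowest treated tumour above the highest control. Xrcc4, the scaffold that holds the ligase, made no call (-0.20, SE 0.20), and Xrcc4 minus Lig4 was -2.53 to -1.20 log2 with panobinostat and -0.63 to -0.12 with vehicle (adjusted p = 0.0367, exact permutation test). Leaving out any 1 vehicle library ended this call (adjusted p = 0.0686 to 0.0735, exact permutation test). The groups still did not overlap then (difference -1.65 to -1.48). Other pairs still passed in those fits with as few assignments, so the number of assignments alone does not account for the loss. Prkdc, the DNA-dependent protein kinase gene, had 0.25 (SE 0.14) and no call.

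The genes that steer breaks toward end joining are Trp53bp1, a chromatin reader that shields ends, and its effector Rif1. Trp53bp1 fell by 0.85 (SE 0.14), to 7.04 to 7.38 log2 CPM with panobinostat, against 7.87 to 8.36 with vehicle, and 15.04% of its exon length is shared with Tubgcp4 (0.14, SE 0.11). Rif1 made no call (-0.29, SE 0.24), and its value in vehicle library 4 was 5.85 log2 CPM against 6.92 to 7.00 in the other 3, and without that library it fell by 0.57 (adjusted p = 2.39e-04, limma). Neither Trp53bp1 minus Rif1 (difference -0.56, adjusted p = 0.182) nor Brca1 minus Trp53bp1 (0.40, adjusted p = 0.161) passed the exact permutation test.

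Mismatch repair uses MSH6 for base mismatches and MSH3 for small loops, and both genes fell. Msh3 (chromosome 13, 92211872 to 92355003) had 4.10, 3.84, 3.86 and 3.81 log2 CPM with panobinostat, against 5.38, 5.44, 5.13 and 5.05 with vehicle. The highest treated value lay nearly 1 log2 unit under the lowest control, and the level was 2.55-fold lower (log2 change -1.35, SE 0.13, adjusted p = 3.35e-05, limma). Msh6 (chromosome 17, 87975062 to 87990892) had 6.24, 6.07, 6.35 and 6.31 log2 CPM with panobinostat, against 6.59, 6.69, 6.45 and 6.82 with vehicle. Its change was smaller (-0.40, SE 0.11, adjusted p = 0.00964, limma), and the call was lost with quantile normalization (-0.22, adjusted p = 0.0535, limma). Msh3 minus Msh6 was -2.51 to -2.14 log2 with panobinostat and -1.77 to -1.21 with vehicle (adjusted p = 0.0367, exact permutation test). Pms2, of the MutL endonuclease, made no call (-0.18, SE 0.11).

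Base excision repair starts with a glycosylase, continues with a cut at the bare site and ends with single-strand break repair. The uracil glycosylase gene Ung fell by 1.11 (SE 0.17), while Ogg1, the glycosylase for oxidised guanine, made no call (-0.10, SE 0.15), and 10.6% of Ogg1 overlaps Camk1, which rose by 2.04 (SE 0.18) on the other strand. Ogg1 minus Ung was -1.12 to -0.82 log2 with panobinostat and -2.20 to -1.87 with vehicle (adjusted p = 0.0367, exact permutation test). Apex1 (chromosome 14, 50924968 to 50927139), which encodes the main endonuclease at bare sites, had 4.99, 4.94, 5.03 and 5.11 log2 CPM with panobinostat, against 5.93, 6.22, 5.86 and 6.49 with vehicle. It fell by 1.11 (SE 0.14, adjusted p = 1.48e-04, limma), with no overlap of groups. Its value is uncertain, since 61.7% of its exon length lies over Pip4p1 on the other strand, which rose by 0.36 (SE 0.09).

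Parp1 and Parp2 make the poly(ADP-ribose) that recruits the repair scaffold XRCC1 to single-strand breaks. Parp2 (chromosome 14, 50807841 to 50821301) had 5.22, 5.22, 5.24 and 5.24 log2 CPM with panobinostat, against 6.05, 6.11, 6.15 and 6.13 with vehicle. These were the tightest groups of any of the 50 (SD 0.01 and 0.04), and the change was -0.88 (SE 0.08, adjusted p = 2.08e-05, limma). Parp1 fell by 0.59 (SE 0.14), a call lost with quantile normalization (-0.25, adjusted p = 0.0560, limma), and Xrcc1 made no call (-0.29, SE 0.16). Parp1 minus Parp2 did not pass (difference 0.29, adjusted p = 0.161, exact permutation test). Xrcc1 minus Parp1 passed (0.30, adjusted p = 0.0367, exact permutation test), but not after quantile normalization (0.10, adjusted p = 0.303, exact permutation test). Nor did it pass without any 1 vehicle library (adjusted p = 0.0686 to 0.0735, exact permutation test). The groups still did not overlap without 1 vehicle library (0.28 to 0.32). Other pairs passed there with as few assignments, so the number of assignments alone does not account for that loss.

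In nucleotide excision 1 member rose and none of 6 fell, although 2 were called lower with library weights, quantile normalization or median centring. Ddb2 (chromosome 2, 91211572 to 91236982), the sensor of ultraviolet lesions in chromatin and in human cells a p53 target, had 3.85, 3.72, 3.62 and 3.44 log2 CPM with panobinostat, against 2.15, 0.58, 2.05 and 1.39 with vehicle. In reads this was 322, 254, 256 and 212 with panobinostat, against 100, 30, 93 and 55 with vehicle, so the gene was the most sparsely read of the 50 in vehicle tumours. It rose 4.33-fold (log2 change 2.11, SE 0.34, adjusted p = 4.96e-04, limma). Acp2, which overlaps 23.8% of its exon length on the other strand, held 1266 to 1495 reads with panobinostat and 930 to 1270 reads with vehicle and rose by 0.35 (SE 0.11). Xpc, the other lesion sensor, made no call (0.21, SE 0.10, adjusted p = 0.0933, limma), although it rose under 4 alternatives, and Xpc minus Ddb2 was 1.77 to 2.18 log2 with panobinostat and 3.18 to 4.85 with vehicle (adjusted p = 0.0367, exact permutation test).

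Ercc5 (chromosome 1, 44147744 to 44181260), the nuclease gene that cuts on one side of the lesion, had 5.47, 5.39, 5.34 and 5.20 log2 CPM with panobinostat, against 5.63, 5.74, 5.53 and 5.46 with vehicle. The groups overlapped through panobinostat library 1 and vehicle library 4 alone, and no call was made (-0.24, SE 0.10, adjusted p = 0.0658, limma). Without vehicle library 4 it fell by 0.28 (adjusted p = 0.0298, limma). The damage verifier gene Xpa (-0.23, SE 0.19), the nuclease subunit gene Ercc1 (-0.31, SE 0.15) and the helicase gene Ercc2 (0.11, SE 0.10) made no call. For Ercc2 42.7% of the exon length is shared with other genes, among them Klc3, so its level is uncertain.

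**Figure D3:**
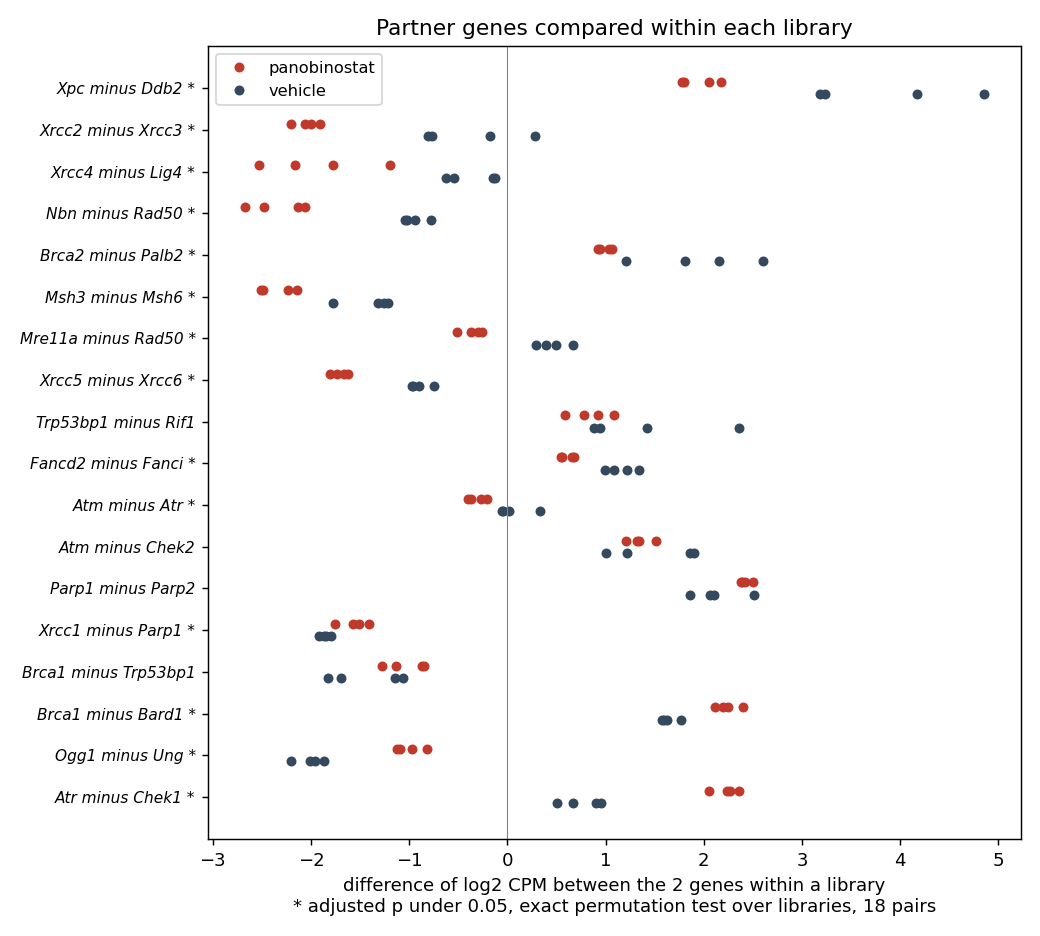
Difference of log2 CPM between 2 partner genes within each library, on the horizontal axis, for 18 pairs, with 4 panobinostat points above 4 vehicle points in each row. A star marks an adjusted p under 0.05 in the exact permutation test. The groups stand apart for 14 of 18 pairs, and the widest gaps of means belong to Xpc minus Ddb2 (-1.91) and Xrcc2 minus Xrcc3 (-1.67).

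Among the damage kinases the checkpoint effector of the ATR branch fell and the 3 others made no call. Chek1 (chromosome 9, 36708482 to 36727065) had 3.91, 3.80, 4.09 and 4.12 log2 CPM with panobinostat, against 5.33, 5.37, 5.55 and 5.06 with vehicle. Again the groups lay nearly 1 log2 unit apart at their closest, and the level was 2.55-fold lower (log2 change -1.35, SE 0.14, adjusted p = 3.94e-05, limma). Atr (chromosome 9, 95857597 to 95951781), the kinase that activates it, had 6.18, 6.16, 6.14 and 6.35 log2 CPM with panobinostat, against 6.28, 6.26, 6.22 and 5.57 with vehicle. Only vehicle library 4 stood off, and the change of 0.12 (SE 0.16, adjusted p = 0.521, limma) turned to -0.047 without it. Atr minus Chek1 was 2.05 to 2.36 log2 with panobinostat and 0.51 to 0.96 with vehicle, so the ratio of kinase to effector transcripts was 2.78-fold higher with panobinostat (adjusted p = 0.0367, exact permutation test).

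Atm (chromosome 9, 53439149 to 53536740), the kinase of double-strand breaks, had 5.78, 5.95, 5.87 and 5.98 log2 CPM with panobinostat, against 6.24, 6.21, 6.24 and 5.90 with vehicle. The change of -0.25 (SE 0.11, adjusted p = 0.0614, limma) made no call, but without vehicle library 4, which lay among the panobinostat values, Atm fell by 0.34 (adjusted p = 0.00501, limma). Chek2 (chromosome 5, 110839979 to 110874145), its effector, had 4.57, 4.63, 4.52 and 4.47 log2 CPM with panobinostat, against 5.23, 4.99, 4.34 and 4.04 with vehicle. The vehicle tumours spread over more than 1 log2 unit on both sides of the treated ones (-0.10, SE 0.25, adjusted p = 0.730, limma). Atm minus Atr passed (-0.38, adjusted p = 0.0367), and Atm minus Chek2 did not (-0.15, adjusted p = 0.457, exact permutation test for both).

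Of the 18 pairs compared, 14 passed, each with all 4 panobinostat differences on one side of the 4 vehicle differences. Over single genes this was the case for 59.7% of all tested and for 25 of the 50 members, and the share over pairs of other genes was not computed. The pairs were chosen with earlier results of these data known, and all 14 had the smallest p the test allows. The count of 14 therefore does not show that partners diverged more often than other genes. Nor is the adjusted p of a single pair independent support for it, since it depends on which pairs were listed. Brca2 minus Palb2 was 0.92 to 1.06 log2 with panobinostat and 1.21 to 2.603 with vehicle. It passed neither after quantile normalization (adjusted p = 0.147) nor without any 1 panobinostat library (adjusted p = 0.0735, exact permutation test for both). The groups still did not overlap without 1 panobinostat library (difference -0.98 to -0.93). Other pairs passed there with as few assignments, so the number of assignments alone does not account for that loss.

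Vehicle library 4 stood apart for members with long transcripts, though not for these alone. It held the lowest vehicle value for 20 of 50 members and the highest for 16. Shorter members such as Chek2 (3001 bases) and Xrcc3 (2750 bases) were among the 20. Of 8 members with at least 10000 bases of exon, 7 had their lowest vehicle value in that library, from 0.27 log2 under the mean of the other 3 for Msh3 to 1.11 under it for Rif1, and Trp53bp1 lay 0.17 above it. Over all genes the deviation was smaller. For 1429 tested genes of that length vehicle library 4 had a median deviation of -0.17 log2 from the other 3, and for the 3987 genes with the shortest exons one of 0.18. Vehicle library 3 ran the other way, at 0.061 and -0.12 in the same 2 sets, and the panobinostat libraries lay between -0.062 and 0.055 in them. The part of transcript length in the spread of single genes was not tested. Without this library 28 members fell and 3 rose. Over all genes tested, too, more were called lower and more higher in that fit than with every library. These counts therefore do not set repair genes apart.

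**Figure D4:**
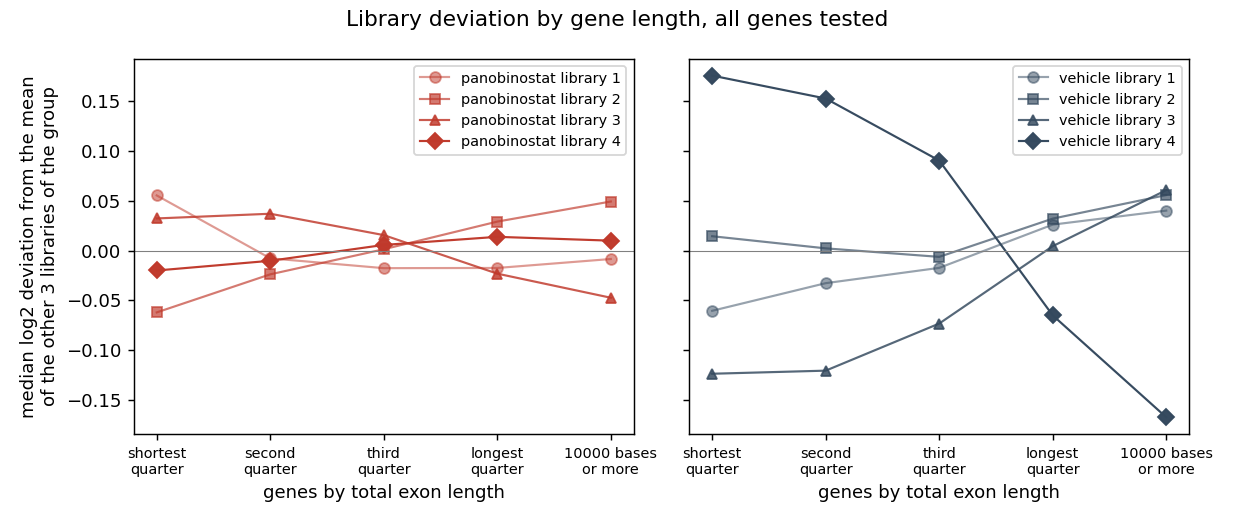
Median log2 deviation of each library from the mean of the other 3 of its group, panobinostat at left and vehicle at right, for genes sorted by total exon length into 4 equal classes and for genes of at least 10000 bases. Vehicle library 4 runs from 0.18 in the shortest class to -0.17 in genes of at least 10000 bases.

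Levels per length placed Parp1 and Apex1 at the top of the members in both groups. In RPKM, reads scaled to exon length and library size, Parp1 averaged 38.1 ± 1.61 with panobinostat and 58.2 ± 12.5 with vehicle, and Apex1 averaged 22.8 ± 1.14 and 49.8 ± 10.2 (mean ± SD, n = 4). Msh6 came next, at 17.5 ± 1.47 RPKM with panobinostat and 23.0 ± 2.51 with vehicle. At the low end of the treated tumours were Fancc (0.767 ± 0.129 RPKM) and Msh3 (1.33 ± 0.127 RPKM), whereas in vehicle tumours the lowest was Ddb2 (1.15 ± 0.503 RPKM). With panobinostat Ddb2 (4.63 ± 0.558 RPKM) and Lig4 (4.65 ± 0.938 RPKM) differed by less than their spread.

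Other genes of the same pathways, 96 listed by textbook role, held 59 that fell, 6 that rose and 31 with no call, with a median log2 change of -0.51. These genes too were chosen with earlier results of these data known. The polymerase theta gene Polq stands in both the recombination and the end joining counts below and once in the total. Their share of lower calls was 61.5%, and for the damage kinase branch it was 12 of 14. There the replication fork protectors Timeless (-1.88, SE 0.08) and Clspn, the claspin gene (-1.91, SE 0.13), fell, while Rad9a, of the sliding clamp that activates ATR, rose by 0.53 (SE 0.13), a call lost without panobinostat libraries 3 and 4 (0.45, adjusted p = 0.0843, limma). In recombination 14 of 21 fell and 1 rose: the nuclease-helicase gene Dna2 fell by 2.11 (SE 0.19) and the ubiquitin ligase gene Rad18 by 1.52 (SE 0.09), whereas Rpa1, the large subunit of the single-strand binding complex, rose by 0.78 (SE 0.11). In the Fanconi set 5 of 10 fell, with the core complex partner Faap20 at -1.43 (SE 0.13) and the deubiquitinase gene Usp1 at -1.20 (SE 0.19).

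In end joining 6 of 12 of these further genes fell and 2 rose. The shieldin gene Shld1 fell by 1.27 (SE 0.21) and Paxx, for a scaffold that binds KU, by 0.89 (SE 0.15), while the hairpin nuclease gene Dclre1c, which encodes Artemis, rose by 1.25 (SE 0.22) and Aplf, for another KU-binding scaffold, by 0.98 (SE 0.20). In mismatch repair 3 of 5 fell and none rose. In nucleotide excision 10 of 17 fell, among them Cul4b, a scaffold of the ubiquitin ligase that DDB2 guides (-0.86, SE 0.11), and Rad23b, the partner of XPC (-0.72, SE 0.12), none rose, and none reached 2-fold. In base excision 10 of 18 fell and 2 rose. The ligase gene Lig1 fell by 1.61 (SE 0.10) and the glycosylase gene Tdg by 1.36 (SE 0.13), whereas Mbd4, a glycosylase for T in T:G mismatches, rose by 1.11 (SE 0.13) and Parp3, a relative of Parp1, by 2.40 (SE 0.34).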

How the data were processed

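Whole tumours of 8 mice were sequenced, with a TruSeq kit on total RNA per the labels. Reads went through CASAVA 1.8.2, TopHat2 and HTSeq on mm10, with limma also named, all per the submitters' processing notes. No source used here states the authors' annotation, gene filter, normalization or strand setting. Values were deposited on a log2 scale. They have the form of voom output, log2 CPM over a scaled library size after 0.5 reads are added, since every value corresponds to a whole read count (largest distance 0.000759 of a read).

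Groups came from the labels. Replicate numbers only name libraries. Identifiers were matched to symbols (17228 of 17488), and gene spans and exon lengths came from GENCODE M21. Read totals ran from 18664066 to 22235545 in panobinostat libraries and from 22055658 to 23830026 in vehicle libraries, and 1 CPM, over the scaled sizes of 19297762 to 22643364, was 19.3 to 22.6 reads. The test was limma 3.58.1 (R 4.3.3), with lmFit, an eBayes step that used a trend of variance with level, and no covariate, on the 16157 genes that reached 1 CPM in 4 or more libraries, two-sided, with Benjamini-Hochberg adjustment over all of them and a threshold of 0.05. Nothing was added beyond the 0.5 reads, so changes of sparsely read genes are understated. Partner genes were compared by two-sided exact permutation of the within-library difference over 70 assignments, adjusted over 18 pairs. Fits were tested on simulated data. Centring on medians moved the median change of all genes from -0.02 to -0.14 and scaling to read totals moved it to 0.10.

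The members, the further lists, the pairs and the rule for naming genes were chosen with earlier results of these data known. Values in every library are given for Brca1, Brca2, Atm, Atr, Chek1, Chek2, the 2 members of each pathway with the smallest adjusted p and any member called against its pathway's median; of the further genes, the 2 with the smallest adjusted p per pathway and any called against its median are named, except in mismatch repair, where they are not reported here. Other alternatives were other filters, variance models, library weights, an added 1 CPM, voom weights, a test against a 1.5-fold change, an adjusted p of 0.01 and leaving out libraries.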

Additional observations from a re-analysis of the deposited data

Results flagged for a closer look

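In 5 of 100 sets of 4 values (50 members in 2 groups) 1 library lay far from the other 3, and chance gives about 1 in 20. In vehicle libraries this was library 4, always low: Rif1 at 5.85 log2 CPM with the nearest other library at 6.92 (gap 0.929 of the whole range), Atm at 5.90 with the nearest at 6.21 (0.933) and Atr at 5.57 with the nearest at 6.22 (0.906). In panobinostat libraries Fancb was high in library 4, at 3.37 log2 CPM with the nearest at 2.98 (0.868), and Prkdc was low in library 1, at 4.58 with the nearest at 4.88 (0.830).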

How the results depend on the processing

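No paired analysis was possible because replicate numbers only name the libraries and no label pairs animals across groups. Of 27 members called, 23 were called under every alternative at a threshold of 0.05 other than the 1.5-fold test. Of 23 without a call 15 gained one somewhere and 8 did not. Matching counts over all genes are not given, so these do not set repair genes apart. Against a 1.5-fold change 2802 genes were higher and 2186 lower, and 16 members were lower (6 in recombination, 4 in the Fanconi pathway, 3 in base excision and 1 each in end joining, mismatch repair and the damage kinases). With scaling to read totals 4 members and 12 of the further genes rose. Over all genes tested, too, more were called higher with that scaling, and fewer lower. The counts of 4 and 12 therefore do not set repair genes apart. The recombination gene Xrcc3 was called higher (1 gene) with a filter of 5 CPM, robust variance, read totals and voom weights. Mismatch genes lower numbered 1 with quantile normalization. Nucleotide excision genes higher numbered 2 with library weights, quantile normalization and read totals, and those lower 2 with library weights, quantile normalization and median centring. Damage kinases lower numbered 2 with library weights and median centring. The causes of these changes were not tested.

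The median log2 change of all members was -0.47 with median centring and -0.23 with read totals. For recombination it was -0.91 without panobinostat libraries 3 and 4, for Fanconi genes -1.04 with quantile normalization and -0.66 with read totals, and for mismatch genes -0.22 with quantile normalization. With 1 library left out, recombination genes higher ranged from 0 to 1, nucleotide excision genes higher from 1 to 2 and lower from 0 to 1, damage kinases lower from 1 to 2 and further genes higher from 6 to 10.

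Some members without a call changed sign. With quantile normalization Brip1 stood at -0.074, Palb2 at -0.24 and Rad52 at -0.16, and with median centring Brip1 at -0.038, Palb2 at -0.12, Rad52 at -0.031 and Ercc2 at -0.011. With read totals Rad51c was at 0.029, Ogg1 at 0.017 and Chek2 at 0.016, and with library weights Rad51c was at 0.066 and Atr at -0.035. Palb2 was at -0.0062 with voom weights. Without panobinostat libraries 3 and 4 Brip1 was at -0.054, Palb2 at -0.070 and Xrcc4 at 0.0082. With 1 library left out the ranges were -0.022 to 0.17 for Brip1, -0.057 to 0.063 for Palb2, -0.0031 to 0.21 for Rad52, -0.18 to 0.013 for Ogg1, -0.047 to 0.19 for Atr and -0.31 to 0.091 for Chek2.

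Of the pairs, Brca2 minus Palb2 (-0.70) and Xrcc1 minus Parp1 (0.10) lost the call and Parp1 minus Parp2 (0.58) gained one with quantile normalization, where Atm minus Chek2 was at 0.11. With 1 library left out Parp1 minus Parp2 ranged from 0.20 to 0.41, passing without vehicle library 4, Brca2 minus Palb2 from -1.20 to -0.74, Xrcc4 minus Lig4 from -1.79 to -1.35 and Xrcc1 minus Parp1 from 0.25 to 0.36. Brca2 minus Palb2 lost its call without any 1 panobinostat library, and Xrcc4 minus Lig4 and Xrcc1 minus Parp1 without any 1 vehicle library. In these cases the groups still did not overlap. Other pairs passed in the same fits with as few assignments, so the number of assignments alone does not account for the losses. Without panobinostat libraries 3 and 4 the pair test cannot reach the threshold and only values were compared. Ddb2 had the fewest reads, 30 to 100 in vehicle tumours.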

Other observations

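The repair genes ranked the panobinostat libraries unevenly. Library 4 held the highest panobinostat value for 25 of 50 members and for 12 of 16 recombination genes, and library 1 the lowest for 24 and 10. The mean over recombination genes was 4.39, 4.44, 4.49 and 4.69 log2 CPM in panobinostat libraries 1 to 4, against 5.19, 5.20, 5.05 and 5.02 in vehicle libraries 1 to 4. Summed genes of S phase and mitosis were also highest in library 4 of the treated tumours (2297 CPM) and lowest in library 1 (1892 CPM), and library 4 held the most liver, pancreas and adrenal cortex reads. Whether these go together was not tested.

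Mean levels of the nucleotide excision genes were 4.66 to 4.79 log2 CPM with panobinostat and 4.37 to 4.56 with vehicle, a difference that includes the 2.11 of Ddb2, since the median change of the 6 genes was -0.06, while those of the base excision genes were 5.40 to 5.48 with panobinostat and 5.88 to 6.43 with vehicle.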
